A study of Mus musculus with 6 samples.

Results

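Astrocytes of the adult mouse striatum that fall in astroglial sub-clusters 7 and 14 were described by single-cell RNA-seq. Members were the cells to which the deposited cell annotation gives sub-cluster 7 or 14, 789 of 14373 annotated cells and of 9992 astroglial cells in all. At 3 months (3m) they made up 788 of 1118 astroglial cells, and 1 member came from postnatal day 3 (P3). The study compared striatal cells of wild-type male C57BL/6 mice at P3 and at 3m, in 3 libraries per age, to ask how astrocytes change as they mature. Cells were dissociated and enriched on magnetic columns with an antibody to ACSA2, a surface antigen of astrocytes, and several mice were pooled for each preparation per the study's methods, so that a library is a pool and not an animal. No treatment and no transgene was used in these libraries, and both ages share strain and sex. Each library was made with the 10x Chromium 3′ chemistry, which captures the 3′ end of an mRNA and tags each molecule with a unique molecular identifier (UMI).

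Astrocytes take up glutamate and potassium released by neurons, couple into networks through connexins, store glycogen and supply lipids carried on apolipoproteins. They keep a regional identity from development, so that astrocytes of the telencephalon, which includes the striatum, express patterning factors that astrocytes of the diencephalon and brainstem lack. Maturation of astrocytes after birth is accompanied by the loss of radial glial genes and by the gain of transporters, channels and receptors.

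The sub-clusters were built by the authors from the same gene counts that are described here. A difference between sub-clusters 7 and 14 and other cells in any gene is therefore a description, with no test and no p-value. Counts were summed over the cells of one type in one library and divided by their total (CPM, UMIs of a gene per 1000000 UMIs of the type), and log2 ratios were taken of CPM + 10 between types of the same library. A gene was compared where either type had a mean of at least 50 CPM, and it was called where it differed by at least 2-fold in the same direction in each of the 3 libraries. Values are given in the order 3m replicate 1, 2 and 3, and errors are SDs over these 3 libraries.

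The 3m libraries held 5471573 to 10522151 UMIs over 1308 to 1769 barcodes, and the P3 libraries 32193875 to 37795021 UMIs. Replicate 1 stood apart from the other 3m libraries before any result was drawn. In it 836 of 1653 barcodes (50.6%) had at least 10% mitochondrial UMIs and had been left out by the authors' filter, against 18.3% and 23.1% in replicates 2 and 3. Its members had more UMIs per cell (medians of 5455, 3234 and 3831) and a higher mitochondrial share (medians of 8.39, 5.61 and 5.86%). Members summed to 1096060, 965527 and 1242120 UMIs, so that 1 UMI stood for about 1 CPM. Of 37 barcode sequences found in more than 1 library, 6 belonged to 3m members, and the P3 member's barcode was not among them.

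Sub-clusters 7 and 14 supplied 196, 283 and 309 cells of the 3m replicates. This was 24.5% (95% Wilson interval 21.6 to 27.6), 20.2% (18.2 to 22.4) and 31.4% (28.6 to 34.3) of the annotated cells, with a mean of 25.4% ± 5.62 (SD, n = 3). Intervals cover counting error only. Among astroglial cells the members made up 92.0%, 51.8% and 86.1%, and replicate 2, the lowest, held 168 of the 202 cells of sub-cluster 13 at 3m. Sub-cluster 14 was almost a single library: 182 of its 184 cells came from 3m replicate 1 and 2 from replicate 3. Sub-cluster 7 had 14, 283 and 307 cells in the 3m replicates and 1 cell at P3, so that 97.5% of it came from replicates 2 and 3. Sub-cluster and library can thus hardly be told apart, and the 2 sub-clusters were summed as one type for all comparisons with other cells. In P3 replicates 2 and 3, 0 of 3634 and 0 of 5039 cells were members, which allows shares of up to 0.106% and 0.0762% (upper Wilson bounds).

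**Figure D1:**
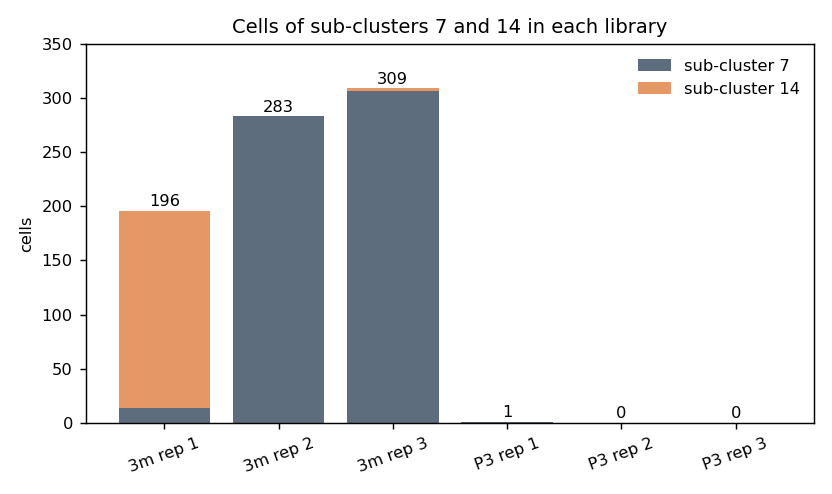
Number of cells of sub-cluster 7 (grey) and sub-cluster 14 (orange) in each of the 6 libraries, with the sum above each bar. The 3m bars reach 196, 283 and 309 cells, and sub-cluster 14 fills 182 of the 196 cells of 3m replicate 1.

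The sequences just upstream of 3 genes on which the description turns are shown for reference: Aldoc and Gjb6, both given as markers of these cells, and Lhx2, whose level set the members apart from the other adult astroglia. They come from the 250 bases before the RefSeq start site nearest to the 5′ end of the gene, on GRCm38.p6 and 5′ to 3′ on the strand of the gene, and stop where the GENCODE gene begins, which leaves 145 bases for Aldoc. They lie in front of Aldoc at chr11:78322823-78322967, plus strand, of Gjb6 at chr14:57133612-57133861, minus strand, and of Lhx2 at chr2:38339031-38339280, plus strand. Capitals mark matches on either strand to AGGTCA, the half-site of nuclear receptors such as RORs, TTGGCA, a half-site of nuclear factor I, or ACAAAG, a core of SOX sites. The 3 motifs do not overlap one another here.
Aldoc: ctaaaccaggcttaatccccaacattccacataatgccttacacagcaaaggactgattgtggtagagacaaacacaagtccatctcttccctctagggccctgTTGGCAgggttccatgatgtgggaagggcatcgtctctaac
Gjb6: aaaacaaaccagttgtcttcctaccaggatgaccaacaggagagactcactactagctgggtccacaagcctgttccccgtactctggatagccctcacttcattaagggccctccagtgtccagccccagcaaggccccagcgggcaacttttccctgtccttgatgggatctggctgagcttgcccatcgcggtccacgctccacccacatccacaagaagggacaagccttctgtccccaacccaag
Lhx2: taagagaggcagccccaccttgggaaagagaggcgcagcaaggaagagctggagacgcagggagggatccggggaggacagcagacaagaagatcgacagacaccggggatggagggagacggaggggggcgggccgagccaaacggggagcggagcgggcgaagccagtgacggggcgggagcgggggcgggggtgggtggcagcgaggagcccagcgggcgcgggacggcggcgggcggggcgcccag
A single match was found in the 250 bases before the 3 RefSeq start sites, TTGGCA at Aldoc, starting 146 bases before the RefSeq start site. Among 32536 windows of 250 bases, 14% held AGGTCA, 12.3% held TTGGCA and 16.5% held ACAAAG. A match is a run of letters and not a binding site, and the RNA data do not bear on binding.

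The 4 markers given for these cells behaved unequally. Aldoc, encoding the glycolytic aldolase C, stood at 5349, 4925 and 5039.8 CPM in the members and at 86.2 to 192 CPM in oligodendrocytes of the same libraries (log2 ratio 5.15 ± 0.60). Slc1a2, the glutamate transporter GLT-1, stood at 4643, 4993 and 4767 CPM against 163 to 378 CPM. Gjb6, encoding connexin 30, was at 380.5, 294 and 333 CPM against 3.86 to 7.61 CPM. For these 3 genes the members lay above every oligodendrocyte, endothelial and microglial value of the 3 libraries. Etnppl, encoding ethanolamine-phosphate phospholyase, was low, with 25.5, 30.0 and 37.8 CPM in the members, under the minimum of 50 CPM. It was at 219 and 210 CPM in sub-cluster 13 of replicates 2 and 3, above all members. Against sub-cluster 13, Gjb6 was at 488 and 471 CPM, also above the members, and Slc1a2 at 4656 and 5306 CPM, within 2-fold of them. The markers thus set sub-clusters 7 and 14 apart from non-astroglial cells, in 3 of 4 cases strongly. Against the adult astroglial sub-clusters 13 and 16 summed, 0 of the 4 were called higher and 1 was called lower.

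The share of cells with at least 1 UMI followed the same order once every cell was thinned to 1500 UMIs, which left out 8, 36 and 22 shallower members. Aldoc was then found in 99.5, 97.2 and 98.3% of members and Slc1a2 in 99.5, 99.6 and 99.0%. Gjb6 was found in 43.6, 36.4 and 37.3% and Etnppl in 2.66, 2.43 and 5.23%. Oligodendrocytes, which should lack these genes, showed Aldoc in 7.38, 16.6 and 12.9% and Slc1a2 in 12.2, 22.2 and 17.1% of cells at the same depth, which was taken as the background of each library. Their share was 0.422, 1.24 and 0.771% for Gjb6 and 0.211, 0.828 and 0.193% for Etnppl. For Etnppl the Wilson intervals of members and oligodendrocytes overlapped in replicate 1, where 2.66% (1.14 to 6.07) stood against 0.211% (0.0373 to 1.19), and in replicate 2. Without thinning, Etnppl was found in 10.7, 9.54 and 12.6% and Gjb6 in 82.7, 54.4 and 63.8% of members, at median depths of 5455, 3234 and 3831 UMIs against 8484, 4530 and 4742 UMIs in oligodendrocytes.

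**Figure D2:**
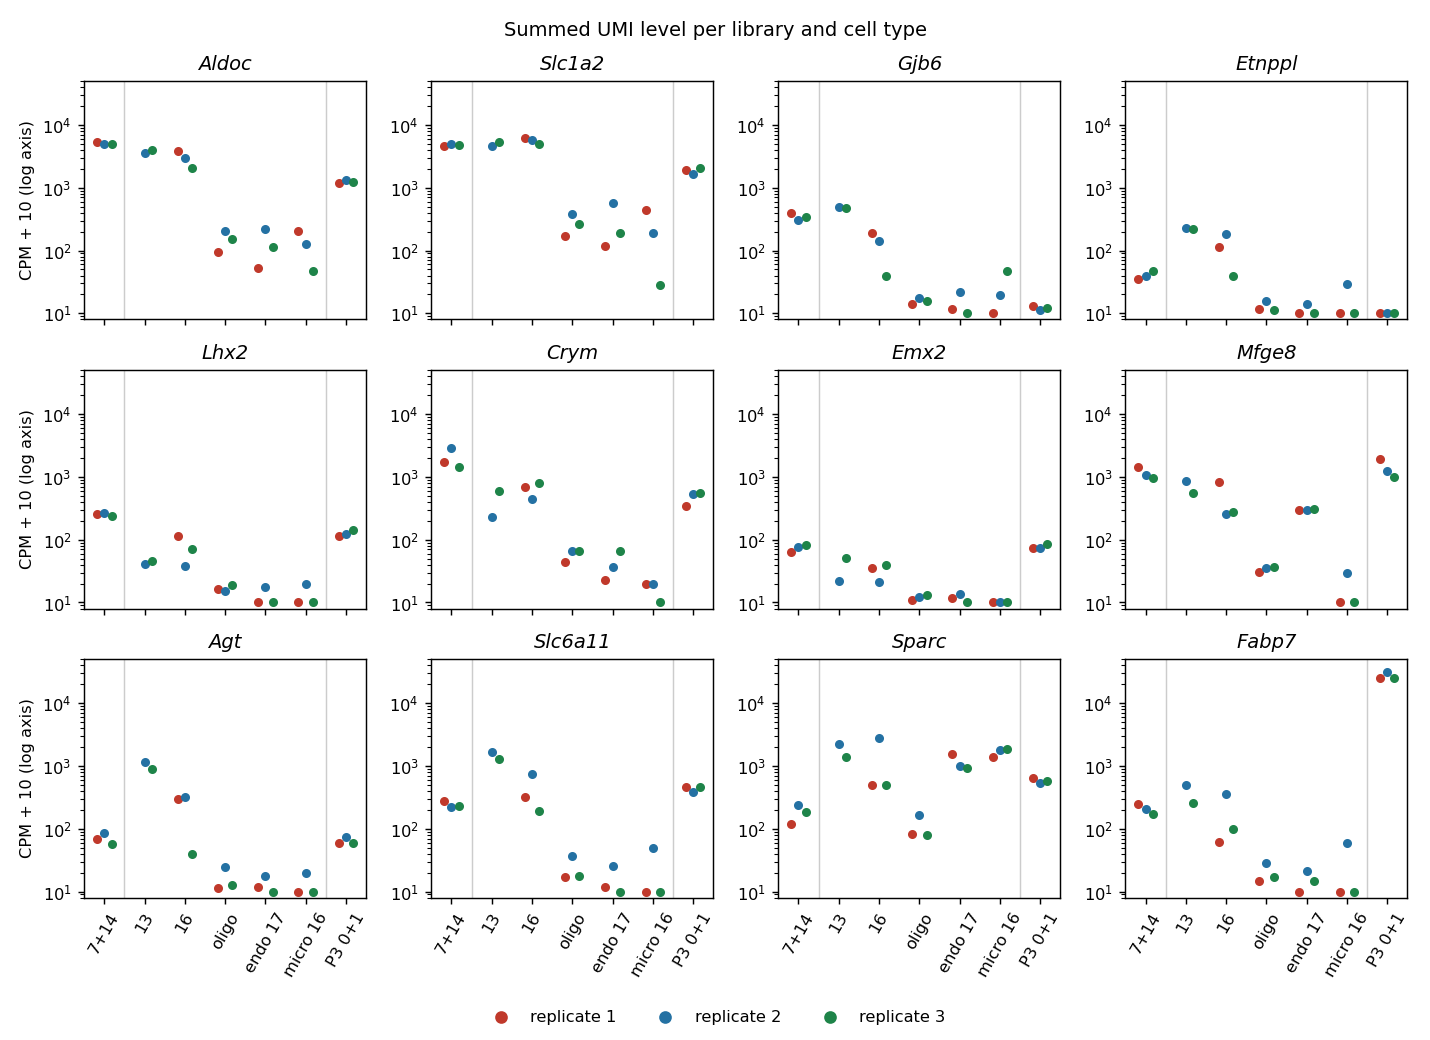
Level of 12 genes (CPM + 10 of summed UMIs, log axis) in sub-clusters 7 and 14, the other adult astroglial sub-clusters 13 and 16, oligodendrocytes, endothelial cluster 17, microglia cluster 16 and P3 sub-clusters 0 and 1; each point is 1 library, and types with under 10 cells in a library are left out. Aldoc and Slc1a2 are high in all adult astroglia, Lhx2 and Crym are highest in 7 and 14, and Etnppl, Agt and Slc6a11 are highest in 13.

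Against the other 3m cell types of the same library, 3 comparisons were made. Of 3691 genes compared with oligodendrocytes (1731 cells), 732 (19.8%) were higher and 763 (20.7%) lower in the members. Against the 163 cells of endothelial cluster 17, 725 of 4160 genes (17.4%) were higher and 1085 (26.1%) lower. That cluster also held mural markers (8426, 7456 and 7874 CPM summed) and haemoglobin genes (42600, 21356 and 19162 CPM). Of these, 8 of 10 mural markers and 4 of 4 haemoglobin genes were among the lower genes. Their source was not tested. Against the 60 cells of microglia cluster 16, 845 of 3842 genes (22.0%) were higher and 779 (20.3%) lower. With trimmed mean (TMM) scaling the splits were 935 higher and 826 lower against endothelial cells, and 1154 higher and 619 lower against microglia. Without replicate 1 the counts were 727 and 791 against oligodendrocytes, 744 and 1148 against endothelial cells and 940 and 877 against microglia, now asking for 2-fold in 2 libraries. The percentages above are the background for the gene lists, and the median log2 ratio over all genes compared was -0.21, -0.36 and 0.11 in the 3 comparisons.

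Pan-astrocyte genes were higher in the members almost throughout. Of 15 genes, 12, 14 and 13 were called higher than in oligodendrocytes, endothelial cells and microglia and none lower, with list medians of 4.51, 4.25 and 5.28 on the log2 scale. Slc1a3, the glutamate transporter GLAST, was at 2546, 2867 and 2746 CPM in the members and 102 to 149 CPM in oligodendrocytes. Gja1, encoding connexin 43, was at 1508, 1527 and 1204 CPM and Aqp4, the water channel, at 727, 497 and 541 CPM, against at most 37.5 and 21.2 CPM in oligodendrocytes. Exceptions against oligodendrocytes were Glul, glutamine synthetase, at 2657, 2783 and 2908 CPM against 1880.3, 1993 and 2192 CPM, and S100b, a calcium-binding protein, at 576, 535 and 576 against 495, 469 and 471 CPM. Both are expressed by oligodendrocytes at nearly the members' level. Against microglia 14 genes were compared and 13 called higher. The list's summed level was nonetheless no lower in microglia, at 57769, 73536 and 76079 CPM against 56003, 70374 and 66075 CPM in the members. A sum follows its most abundant genes, and Cst3 alone was at 32933 CPM in sub-cluster 14 of replicate 1. By single gene, 14 of the 15 had a mean ratio above 0 against microglia, so the sum does not stand for the list as a group. Gfap, the intermediate filament of reactive and white matter astrocytes, was at 10.0, 20.7 and 29.0 CPM.

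Genes of glutamate and GABA handling numbered 12, of which 9, 9 and 10 were called higher, with medians of 3.09, 2.80 and 3.82. Slc7a10, a transporter of small neutral amino acids, was at 559, 438 and 429.9 CPM in the members against 6.65 to 10.5 CPM in oligodendrocytes. Slc6a11, the GABA transporter GAT-3, was at 268, 209 and 218 CPM. Slc6a9, the glycine transporter GlyT1, went the other way, at 42.0, 20.7 and 30.6 CPM against 98.2, 96.8 and 91.8 CPM in oligodendrocytes. Connexins split by cell type: Gja1 and Gjb6 were higher in the members against all 3 types, while Gjc3 and Gjb1, connexins of oligodendrocytes, were at 0 to 3.22 CPM in the members and at 429 to 586 and 333 to 350.4 CPM in oligodendrocytes. Among 14 genes of potassium, water and ion handling, 9, 10 and 10 were higher and 2, 1 and 1 lower. Kcnk1, a leak potassium channel, was at 1045, 868 and 891 CPM (log2 ratio over oligodendrocytes 5.26 ± 0.25). Kcnj10, the inward rectifier Kir4.1, was lower in the members than in oligodendrocytes, at 69.3, 78.7 and 72.5 against 178, 172 and 165 CPM.

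Lipid carriers were among the 10 most abundant genes of the members by UMIs, beside Malat1, Cst3 (cystatin C), Gm42418 and Mt1. In UMIs, which this chemistry counts per molecule from the 3′ end, Apoe, the main apolipoprotein of the brain, held 31939.9, 23529 and 19272 CPM, and Clu, clusterin, 7618, 11263 and 10629 CPM. Of 15 lipoprotein and fatty acid genes, 12, 13 and 12 were higher, with medians of 3.45, 3.88 and 4.74. Scd2, a stearoyl-CoA desaturase that oligodendrocytes use to make myelin lipids, was lower than in oligodendrocytes, at 608, 612 and 616 against 2687, 2136 and 2104 CPM. All 3 metallothioneins, which bind zinc and copper, were higher against each type, with Mt1 at 10362, 14915 and 13938 and Mt3 at 6616, 10564 and 10334 CPM. Of 17 cholesterol synthesis genes, 4, 12 and 12 were higher and none lower. Several of the others were at levels near those of oligodendrocytes, such as Hmgcs1 at 172, 232 and 252 against 149, 173 and 157 CPM. Msmo1, a sterol oxidase, was at 1020, 776 and 977 against 158, 114 and 109.9 CPM. Slc2a1, the glucose transporter GLUT1, was at 179, 82.9 and 74.9 CPM, highest in replicate 1. Of 24 genes of glycolysis, lactate and glycogen, 12, 9 and 12 were higher and 0, 4 and 0 lower. Lower than in endothelial cells were Slc2a1 (at 1661, 693 and 859 CPM there), Ldha, Slc16a1 and Gbe1. Higher than in oligodendrocytes was Ldhb at 1676, 1706 and 1549 against 108, 131 and 99.2 CPM. The monocarboxylate transporter Slc16a3 was at 0 UMIs in the members.

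Receptor genes (11, 13 and 13 of 20 higher, none lower) were led by S1pr1, a receptor for sphingosine 1-phosphate, at 1411, 1649.9 and 1485 CPM, Ntsr2, a neurotensin receptor, at 1312, 1445 and 1316 CPM, and Ntrk2, the receptor of BDNF, at 942, 1105 and 955 CPM. Gria2, an AMPA receptor subunit, was at 840.3, 659 and 532 CPM and Grm3, a metabotropic glutamate receptor, at 276, 266 and 319.6 CPM, while Grm5 was at 2.74, 0 and 3.22 CPM. Of 18 synapse-organising and matricellular genes, 10, 9 and 9 were higher, including the brain proteoglycan Bcan at 1572, 1447 and 1359 CPM and Sparcl1 (hevin) at 2567, 2887 and 2800.1 CPM. Sparc, the related protein that opposes hevin at synapses, was lower than in endothelial cells and microglia, at 110.4, 231 and 174 CPM against 934 to 1539 and 1402 to 1873 CPM. Of 23 transcription factors, 14, 13 and 19 were higher and 1, 2 and 0 lower. Rorb, a nuclear receptor, was at 1047, 1056 and 1193 CPM against 13.3 to 26.2 CPM in oligodendrocytes, and Sox9 was at 456, 556 and 432 CPM against 6.43 to 17.3 CPM. Fezf2, a forebrain zinc finger factor, was at 36.5, 19.7 and 33.0 CPM in the members and at 0.429, 0.262 and 0.369 CPM in oligodendrocytes, with 0 UMIs in endothelial cells and microglia, and was too low to be compared.

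**Figure D3:**
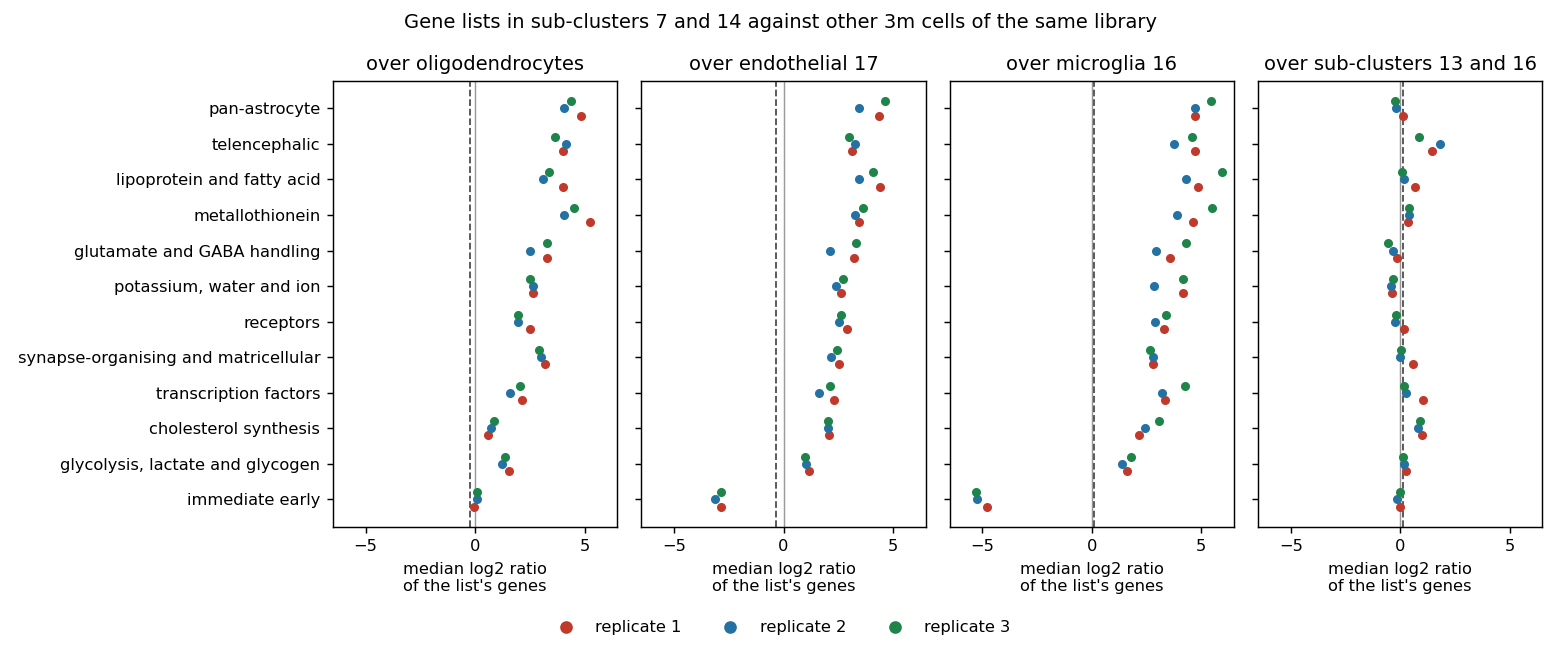
Median log2 ratio (CPM + 10) of the genes of 12 lists in sub-clusters 7 and 14 over oligodendrocytes, endothelial cluster 17, microglia cluster 16 and adult astroglial sub-clusters 13 and 16, 1 point per 3m library; the dashed line is the median over all genes compared. The telencephalic list lies to the right in all 4 panels, while the pan-astrocyte list lies near 0 against sub-clusters 13 and 16.

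Set against all other non-astroglial 3m cells summed, 674 of 3763 genes (17.9%) were higher and 779 (20.7%) lower. The 15 genes with the highest ratio included Cldn10, a claudin, at 2140.4, 2138 and 2188 CPM against 19.6, 41.2 and 31.8 CPM (log2 ratio 5.76 ± 0.40), and F3, tissue factor, at 1428, 1202 and 1291 CPM (log2 ratio 5.71 ± 0.15). They were Cldn10, F3, Btbd17, Fjx1, Gpr37l1, Kcnk1, Bcan, Clu, Aldoc, Crym, Pla2g7, Rorb, Gja1, Cxcl14 and Ntsr2, with ratios between 4.99 and 5.76. Gpr37l1 is a receptor of astrocytes for prosaposin, and Cxcl14, a chemokine, was at 999.9, 941 and 968 CPM. Among the 5 lowest were Ptgds, Mal, Trf and Cldn11, all oligodendrocyte genes, at ratios between -8.11 and -7.12. Of 10 immediate early genes, which dissociation can induce, 9 were at or below 21.9 CPM in each library of the members, with Fos at 4.56, 3.11 and 8.05 CPM and Egr1 at 0, 0 and 1.61 CPM. Jun was higher, at 154, 96.3 and 127 CPM, and was at 235, 149 and 217 CPM in oligodendrocytes. In microglia of the same libraries Fos was at 1787, 1707 and 2903 CPM, and all 10 genes of that list were called lower in the members there, 8 against endothelial cells.

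Differences from the other adult astroglia were few against sub-clusters 13 and 16 summed and against 13 alone, but not against 16 alone. Sub-clusters 13 and 16 held 202 and 121 cells at 3m, but only 17 in replicate 1, 14 of them of sub-cluster 16. The make-up of their sum thus differed between libraries. Of 3203 genes compared with both summed, 59 (1.84%) were higher and 138 (4.31%) lower in the members. Without replicate 1, 73 were higher and 137 lower, and without replicate 2 or replicate 3 the higher genes numbered 117 and 114, with 2 libraries left to pass. Against sub-cluster 13 alone, in replicates 2 and 3, 59 of 3133 genes (1.88%) were higher and 102 (3.26%) lower. Against sub-cluster 16 alone the counts were 378 (11.8%) and 296 (9.26%) of 3198 genes.

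Telencephalic genes lay mostly above those of the other adult astroglia. Of 5 genes, 2 were called higher than in sub-clusters 13 and 16 and none lower, with a list median of 1.26 where all genes compared had 0.11. Lhx2, a LIM homeodomain factor of the forebrain, was at 250, 260 and 229 CPM in the members and at 30.9 and 35.9 CPM in sub-cluster 13. Crym, encoding the thyroid hormone-binding protein mu-crystallin, was at 1725, 2876 and 1435 CPM against 224 and 579 CPM in sub-cluster 13 and 676, 429.7 and 779.8 CPM in sub-cluster 16. Emx2, a homeodomain factor, was at 52.9, 66.3 and 70.8 against 11.8 and 41.0 CPM and Mfge8, a secreted phagocytosis factor, at 1431, 1064 and 948 against 843 and 553 CPM, both higher in the members but not by 2-fold in each library.

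Non-telencephalic genes differed in the other direction from sub-clusters 13 and 16 summed, with 3 of its 3 compared genes called lower. Agt, angiotensinogen, was at 59.3, 74.6 and 47.5 CPM in the members and 1133 and 901 CPM in sub-cluster 13. Slc6a11 was at 268, 209 and 218 against 1630.1 and 1270.2 CPM and Itih3, a heavy chain of inter-alpha-trypsin inhibitor, at 52.9, 47.6 and 41.9 against 561 and 574 CPM. The groups did not overlap for any of the 3 in sub-cluster 13. Against sub-cluster 16 alone none of the 3 was called, with Agt at 286, 305 and 30.0 CPM, Slc6a11 at 312, 741 and 180 CPM and Itih3 at 104, 271 and 180 CPM there. The other 8 genes of the list, patterning factors such as Zic1, Irx1 and Otx2, were too low to be compared, at 0 to 4.03 CPM in the members and 0 to 10.3 CPM in sub-cluster 13. Other genes lower than in sub-clusters 13 and 16 were Sparc (2266 and 1388 CPM in sub-cluster 13), Gfap (196 and 154 CPM), Kcnj10 (396 and 379 CPM), the bicarbonate transporter Slc4a4 at 768, 659 and 613 against 1999 and 1910.5 CPM, Slc6a9 (218 and 261 CPM), Abat, which breaks down GABA, at 119.5, 125 and 111 against 366 and 369 CPM, and Lgi1, a synaptic adhesion ligand, at 40.1, 36.2 and 44.3 against 194 and 179 CPM. Cholesterol synthesis genes had a median of 1.02, with 2 of 17 called higher and none lower, and Msmo1 was at 369 and 287 CPM in sub-cluster 13. Pan-astrocyte genes had a median against sub-clusters 13 and 16 summed of -0.07, which became 0.04 with TMM scaling. Against sub-cluster 16 alone their median was 1.26, where all genes compared had 0.50, and 13 of 15 genes lay above 0.

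Genes with the largest ratios over sub-clusters 13 and 16 were Gdf10, a bone morphogenetic protein relative, Atp1b1, a sodium pump subunit, Nupr1, Fam13c, Oaf, Vcl, Lhx2, Fjx1, Crym and Rmst. Atp1b1 was at 513, 656 and 696 CPM against 97.7, 67.7 and 101 CPM, and Fjx1, which tunes planar cell polarity, at 1274, 1618 and 1422 against 147, 444 and 398 CPM. Rmst was at 203, 119 and 139 CPM but did not reach 2-fold in each library. Those with the lowest ratios were Kif5a, Mbp, Mobp, Rapgef4, Bcas1, Kif5c, Unc13c, Bc1, Agt and Gng13. Mbp encodes myelin basic protein, and Mobp myelin-associated oligodendrocyte basic protein. They were at 25799, 9436 and 11097 and 6268, 1312 and 1829.6 CPM in sub-cluster 16, against 61.1, 199 and 206 and 19.2, 23.8 and 23.3 CPM in the members. In sub-cluster 13 they were lower, at 792 and 466 and 106 and 61.5 CPM. In sub-cluster 16 Mbp stood at 509, 206 and 256% of its oligodendrocyte level. The part of oligodendrocyte RNA in these ratios was not tested.

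To ask how the adult members differ from the astroglia of the newborn striatum, they were set against P3 sub-clusters 0 and 1 (3041 cells). Here a gene was called where the means of the ages differed by at least 2-fold and their libraries did not overlap. Of 3517 genes, 337 (9.58%) were higher and 529 (15%) lower in the members. Age, library depth and cluster membership differ together in this comparison and cannot be told apart. Mitochondrial genes held 8.15, 5.70 and 6.05% of the members' UMIs and 2.93, 2.44 and 1.96% at P3, and ribosomal protein genes 3.28, 4.16 and 3.88% against 8.81, 10.2 and 7.59%. Their part in the differences was not tested. Immature astrocyte genes lay below P3 levels, with 13 of 14 lower, 13 compared and a median of -3.37, where all genes compared had -0.32. Fabp7, the radial glial fatty acid-binding protein, was at 241, 198 and 163 CPM in the members and 24846, 31090.4 and 25424 CPM at P3 (log2 ratio -7.01). Vim, vimentin, was at 31.0, 48.7 and 26.6 against 687, 713 and 616 CPM and Tnc, tenascin C, at 11.9, 9.32 and 6.44 against 206, 178 and 213 CPM. Immediate early genes were lower for 7 of 10, with Fos at 1940, 1014 and 989 CPM at P3.

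Connexin 30 showed the largest ratio in the other direction among genes of at least 100 CPM in each 3m library: Gjb6 was at 3.15, 1.52 and 2.31 CPM at P3 (log2 ratio 4.81). Next were Prex2, Grin2c, Ntsr2, Cyp2d22, Fam107a, Rmst, Nupr1, Kcnk1 and Hopx. Grin2c, an NMDA receptor subunit, was at 255, 194 and 184 against 2.59, 2.10 and 1.42 CPM, and Hopx, a homeodomain-only protein, at 146, 184 and 184 against 4.28, 8.89 and 7.10 CPM. Of the markers, Aldoc was at 1173, 1298 and 1243 CPM and Slc1a2 at 1908, 1648 and 2058 CPM at P3, while Etnppl had 0 UMIs there. The 10 lowest were Fabp7, Fos, Egr1, Marcks, Marcksl1, Grm5, Junb, Fgfbp3, Ier2 and Ppp1r1a. Grm5, the metabotropic glutamate receptor of young astrocytes, was at 239.5, 184 and 189.6 CPM at P3 while Grm3 was at 226, 196 and 245 CPM.

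Among genes of other roles, 7 of 15 pan-astrocyte genes were higher and 2 lower than at P3. Clu was at 609.9, 985 and 1571 CPM at P3, Mt1 at 1499, 1973 and 1494 CPM and Glul at 761, 782 and 1087 CPM, each lower than in the members. Lower in the members were Aldh1l1, a folate enzyme used as an astrocyte marker, at 216, 135 and 147 against 480.4, 363 and 485 CPM, and Gfap at 10.0, 20.7 and 29.0 against 49.0, 75.1 and 147 CPM. Of 17 cholesterol synthesis genes, 5 were lower and none higher, with Hmgcs1 at 987, 959 and 962 CPM at P3. Of 5 telencephalic genes, 2 were higher: Lhx2, at 106, 111 and 133 CPM at P3, and Crym, at 334, 517 and 547 CPM. Emx2 was at a like level at P3 (64.2, 65.0 and 76.5 CPM). Ptprz1, a receptor phosphatase of glial progenitors, was at 1164, 917 and 923 against 10302, 6058 and 8128 CPM, and Ncan, neurocan, at 149.6, 151 and 159 against 985, 922 and 1168 CPM.

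Members were not alike in every gene. After thinning to 1500 UMIs, the variance of UMIs over cells divided by their mean, which is near 1 for counting error alone, had a median of 0.993 over 826 genes when the lowest of the 3 libraries was taken for each. It was at least 2 in each library for 8 genes: Malat1, Cst3, Crym, Apoe, Gm42418, Clu, Mt1 and Ptn, which were named after their values were seen. Crym stood out among them for its mean, since it reached ratios of 5.75, 5.50 and 5.70 at only 2.53, 4.08 and 2.17 UMIs per cell. In 52.1, 28.7 and 54.4% of the 188, 247 and 287 cells it was at 0 UMIs, while 6.91, 11.3 and 6.97% of cells held 10 or more, up to 20, 23 and 15 UMIs. A single common mean would give 0 UMIs in 7.99, 1.70 and 11.4% of cells by counting error. Oligodendrocytes had Crym in 2.95, 5.93 and 5.01% of cells at this depth. Across cells, Crym had Spearman correlations with Apoe of 0.45, 0.32 and 0.31 and with Ptn of 0.48, 0.22 and 0.23. With Aldoc they were -0.10, 0.27 and 0.02, and with Msmo1 -0.32, -0.26 and -0.17. No other gene was correlated, so these values have no background and only describe cells that share a library and a depth. Gjb6 (1.03, 0.922 and 1.21) and Lhx2 (0.937, 1.10 and 1.10) stayed near 1. Their means were only 0.590, 0.445 and 0.512 and 0.362, 0.377 and 0.362 UMIs per cell. Aldoc was at 1.99, 2.16 and 2.10, at means of 7.95, 7.26 and 7.38 UMIs. For a like relative spread the ratio rises with the mean, so these genes cannot be ranked by it.

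**Figure D4:**
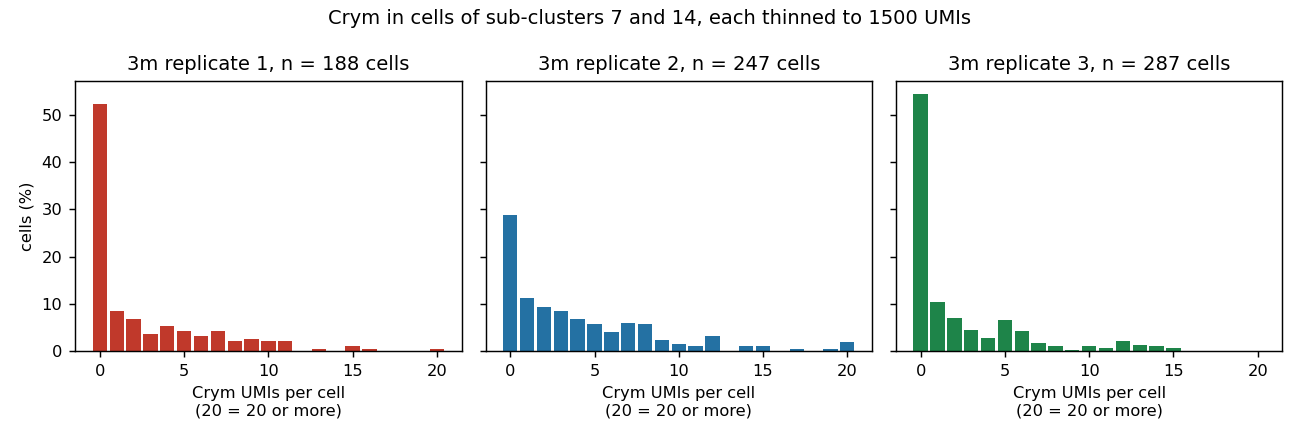
Share of cells of sub-clusters 7 and 14 (%) by number of Crym UMIs after each cell was thinned to 1500 UMIs, 1 panel per 3m library; the last bar holds cells with 20 or more. Cells at 0 UMIs make up 52.1%, 28.7% and 54.4%, and a tail reaches 10 or more UMIs in each library.

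Sub-cluster 14 could be set against sub-cluster 7 within a single library, replicate 1, where 182 and 14 cells were summed. The 14 cells of sub-cluster 7 were shallow, with a median of 1466 UMIs against 5596, and held 30081 UMIs in all, so that 1 UMI stood for 33.2 CPM. At 2-fold, 482 of 3637 genes (13.3%) were higher and 667 (18.3%) lower in sub-cluster 14, without a replicate. With TMM scaling the split became 956 higher and 311 lower. The 10 genes with the highest ratio, Chd9, Daam2, Pbxip1, Akap9, Sirpa, Nktr, Snx6, Adprh, Arap2 and Psmd12, all had 0 UMIs in sub-cluster 7, which exact 95% Poisson bounds put at no more than 123 CPM. The 10 lowest were Prss56, Macrod1, Tada3, Tmem238, Epb41l4aos, Rtca, Tmem183a, Lhcgr, Maz and Gpx1, on 4 to 11 UMIs in sub-cluster 7.

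The marker genes are given with their Poisson intervals, which cover counting error only. Aldoc was at 5302 (5165 to 5442) CPM in 14 and 7014 (6099.8 to 8027) CPM in 7, and Slc1a2 at 4668 (4539 to 4799.6) CPM in 14 and 3757 (3096 to 4516) CPM in 7. Gjb6 was at 384 (347 to 423) CPM in 14 and 266 (115 to 524) CPM in 7, and Lhx2 at 252 (223 to 284) CPM in 14 and 166 (54.0 to 388) CPM in 7, on 8 and 5 UMIs in sub-cluster 7 and with overlapping intervals. Etnppl was at 26.3 (17.5 to 38.0) CPM in 14 and 0 (0 to 123) CPM in 7, where it had 0 UMIs. Crym was at 1667 (1590.4 to 1746) CPM in 14 and 3789.8 (3126 to 4553) CPM in 7, a log2 ratio of -1.18. Malat1, a nuclear RNA, went the other way, at 122177 (121514 to 122842) CPM in 14 and 71474 (68484 to 74560.2) CPM in 7. No other 3m library held 10 cells of sub-cluster 14.

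Since sub-cluster 14 is nearly replicate 1, the members of replicate 1 were also set against those of replicates 2 and 3, and oligodendrocytes of the same libraries beside them; this was chosen after the split was seen. Of 2738 genes of at least 50 CPM on average, 9 (0.329%) were at least 2-fold higher in the members of replicate 1 than in both others, and 6 (0.219%) lower. In oligodendrocytes the counts were 11 (0.391%) and 14 (0.498%) of 2814 genes, and in endothelial cells 23 (0.710%) and 17 (0.525%) of 3241. Calr, a chaperone of the endoplasmic reticulum, was at 424, 142 and 138 CPM in the members and 286, 120.4 and 90.4 CPM in oligodendrocytes. Gm42418, a gene model that overlaps a ribosomal RNA repeat, was at 9197, 37878 and 52434 CPM in the members and 6440.3, 24259.6 and 35641 CPM in oligodendrocytes. Among the 9 higher genes were Clk1, Rbm39, Slc2a1, Ate1, Calr, Luc7l3, Neat1 and mt-Co3, and the 6 lower were Lars2, Hist1h4d, Hist1h1e, Gm42418, Mbp and mt-Atp8. Of these 15 genes, 14 had the same sign in oligodendrocytes, the exception being Mbp, and 7 passed 2-fold there as well. In endothelial cells 11 of the 15 had the same sign, with Clk1, Ate1, Luc7l3 and Mbp as exceptions, and 5 passed 2-fold. The share of all genes with the same sign was not counted, so these counts have no background beside them.

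Over 1861 genes the replicate 1 ratios of members and oligodendrocytes had a Pearson r of 0.72 (Spearman's rho 0.69), and over 1819 genes those of members and endothelial cells had 0.58 (0.53). Genes are not independent replicates and both axes share the libraries, so that these values describe the libraries and carry no p. Whether sub-cluster 14 holds other cells than sub-cluster 7 and whether replicate 1 differs from the other libraries cannot be told apart. Members of different replicates nonetheless differed little, since 98.4% and 99.1% of genes lay within 2-fold between replicate 1 and the others, and 99.96% between replicates 2 and 3.

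**Figure D5:**
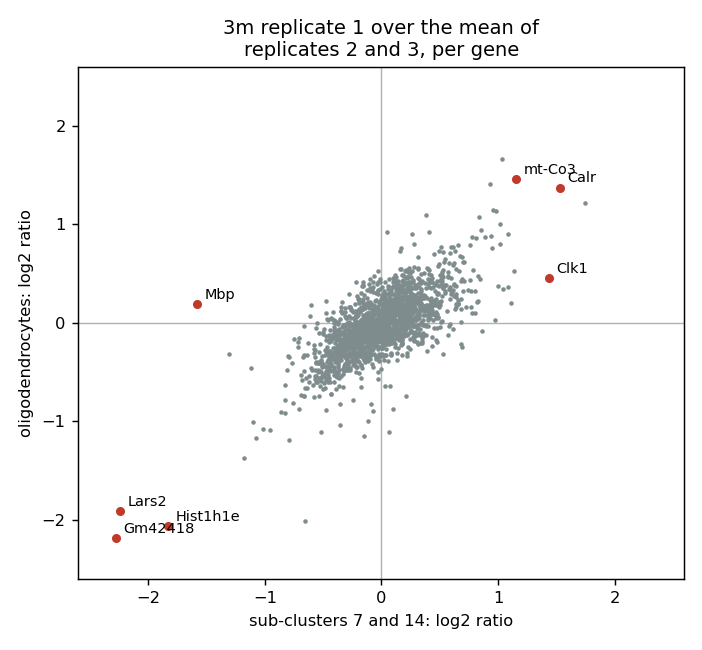
Log2 ratio of CPM + 10 in 3m replicate 1 over the mean of replicates 2 and 3, in sub-clusters 7 and 14 (x) and in oligodendrocytes (y), 1 point per gene, 1861 genes. Most genes lie along the diagonal (Pearson r 0.72), with Calr and mt-Co3 at the upper right and Gm42418, Lars2 and Hist1h1e at the lower left.

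Markers of other cell types were low in the members. The 10 oligodendrocyte markers summed to 389, 526 and 432 CPM, against 65526, 47815 and 43454 CPM in oligodendrocytes, and all 10 had UMIs. Mbp was at 1.21, 4.34 and 4.76% of its oligodendrocyte level, and Mobp was at 19.2, 23.8 and 23.3 CPM against 1083 to 2714 CPM. Only 2 of 788 members gave 1% or more of their UMIs to these genes. The 10 microglial markers summed to 90.3, 89.1 and 72.5 CPM, and 6 of them, C1qa, Cx3cr1 and Csf1r included, had 0 UMIs. Of 10 endothelial markers 4, Flt1 and Cdh5 included, had 0 UMIs, and the sum of 1462, 1414 and 1134 CPM was mostly Bsg, which astrocytes express, at 1282, 1329 and 1054 CPM. Markers of mural cells (105, 103 and 84.5 CPM), oligodendrocyte precursors (19.2, 12.4 and 11.3 CPM), neurons (107, 133 and 134 CPM) and ependymal cells (94.9, 156 and 123 CPM) were low as well. Haemoglobin genes were at 0, 0 and 5.64 CPM. Of the neuronal sum most was Ppp1r1b, DARPP-32, at 90.3, 101 and 96.6 CPM, and Drd1 was at 0 UMIs. Of 6 genes of proliferation at most 1 was high enough to be compared, and it was not called in either direction. Of 15 reactive astrocyte genes only 1, 5 and 3 were high enough to be compared with oligodendrocytes, endothelial cells and microglia. The 1 gene compared with oligodendrocytes, H2-K1, was called higher, at 158, 78.7 and 78.1 against 22.7, 8.92 and 13.3 CPM. On the same list 0, 5 and 2 genes were lower than in oligodendrocytes, endothelial cells and microglia, C4b was at 28.3, 40.4 and 39.4 CPM, and Lcn2 and Timp1 had 0 UMIs. Scrublet marked none of the members as doublets, out of 77 barcodes marked in the 3m libraries.

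The authors' pseudotime, a unitless Slingshot score for the order of astroglial cells, started at a proliferating P3 sub-cluster, was given for all 788 members at 3m. Its medians were 215, 203 and 205 and it ran from 157 to 247. P3 sub-clusters 0 and 1 had scores for 2296 cells, with medians of 160.3, 159 and 163, and 6 members lay below the highest score of any P3 cell, 179.8. Within replicate 1 the median was 215 in sub-cluster 14 and 195 in the shallower cells of sub-cluster 7. The score was built from the same counts, and the part of depth in this difference was not tested. The single P3 member was the P3 cell with that highest score. It had 3621 UMIs and 9.20% mitochondrial UMIs, with 0 UMIs of Aldoc and Gjb6, 7 of Slc1a2, 17 of Crym and 1 of Fabp7. It entered no comparison.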

How the data were processed

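Per the labels and methods, the authors aligned reads to mm10 with Cell Ranger and processed cells with Seurat (3.1.1 in the submitters' processing notes), with a filter that required more than 500 genes in a cell and a mitochondrial share below 10%. The deposited files held raw UMI counts per gene and cell, a cell annotation with clusters and sub-clusters, and a pseudotime score for astroglial cells, all computed by the authors. The published names and sub-clusters were used as deposited, and their cell names gave the library of each cell.

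UMI counts were summed over the cells of each type in each library and expressed as CPM with a pseudocount of 10 CPM. Types with under 10 cells in a library were left out. Genes were compared at a mean of at least 50 CPM in either type, and called at 2-fold in each library. No test was made across clusters, since clusters came from the same counts. Genes were named from fixed lists and as the highest and lowest ratios among genes of at least 100 CPM, without predicted and mitochondrial genes. The members and the lists were chosen with earlier results of these data known. Per the study's text the libraries of an age were separate preparations, so that SDs are between preparations. The calling steps were tested on simulated counts with counting error only. These held no spread between libraries, so the simulation cannot show how such spread affects the calls. Doublets were marked with Scrublet per library and members kept whether marked or not.

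Alternatives were pseudocounts of 1 and 50 CPM, no minimum beyond 1 UMI, TMM scaling (edgeR 4.0.16 in R 4.3.3, used for scaling factors only), means over cells, sub-cluster 7 alone, thinned sums, a filter of more than 1000 genes and a mitochondrial share below 5%, and each library left out. Python 3.11.15 with numpy 2.4.6, scipy 1.17.1, scanpy 1.11.5 and matplotlib 3.10.9 was used. Upstream sequences came from RefSeq tables of GRCm38.p6, in which 7 of 9 marker and regional genes had an entry. Values of some single genes are not reported here.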

Additional observations from a re-analysis of the deposited data

How the results depend on the processing

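Of 161 recomputed summary values 128 stayed within 1.5 times or 1 SD of the reported value, as did 1295 of 1472 for single genes, none of which changed direction. The median of the pan-astrocyte list against sub-clusters 13 and 16 changed sign with TMM scaling. The larger of the higher and lower counts changed against endothelial cells (TMM) and against oligodendrocytes (no minimum beyond 1 UMI). It also changed for sub-cluster 14 over 7 (TMM, a pseudocount of 50 CPM, no minimum beyond 1 UMI and thinned sums). Taking sub-cluster 16 alone in place of 13 and 16 changed it as well. A pseudocount of 50 CPM gave 459 genes higher and 486 lower against oligodendrocytes, 464 and 687 against endothelial cells, 510 lower against microglia, 23 and 70 against sub-clusters 13 and 16, 189 and 242 against P3, and 316 and 188 for sub-cluster 14 over 7. With no minimum beyond 1 UMI, 1263 genes were higher and 1043 lower than in oligodendrocytes. This setting also gave 1132 genes higher than in endothelial cells and 1535 than in microglia. It gave 566 higher and 800 lower against P3, and 3336 and 1245 for sub-cluster 14 over 7. TMM scaling gave 956 and 311 and thinned sums gave 981 higher and 872 lower for that pair. TMM scaling moved the median of all genes from -0.21 to -0.42 against oligodendrocytes, from -0.36 to 0.07 against endothelial cells, from 0.11 to 0.64 against microglia, from 0.11 to 0.22 against sub-clusters 13 and 16 and from -0.32 to -0.21 against P3.

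Against sub-clusters 13 and 16, means over cells gave 101 genes higher, leaving out 1 library gave 73 to 117 higher and 137 to 200 lower (117 without replicate 2 and 114 without replicate 3, with fewer libraries to pass), and sub-cluster 16 alone, chosen after seeing the data, gave 378 and 296. The members' share of 3m cells was 12.5% under the stricter cell filter and 56.4% of cells other than oligodendrocytes. Sub-cluster 7 alone had 53.7 CPM of microglial markers. At 3000 UMIs per cell Aldoc was found in 100%, Slc1a2 in 100%, Gjb6 in 62.6% and Etnppl in 7.15% of members. The cause of these moves was not tested.

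The stricter filter left 8 members in replicate 1, and 5 cells of sub-cluster 14 against 3 of sub-cluster 7, so that its gene comparisons and other-type markers were not run. No paired analysis was possible because no test was made, and ratios between 3m types were already taken within each library. Replicate 1 and sub-cluster 14 cannot be told apart, microglia numbered 60 cells, and each library is 1 pool of mice.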
